A study of Arabidopsis thaliana with 6 samples.

Results

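OPS, OPL2 and PEAR2 are genes of the first steps of phloem formation, and their transcript signals were compared between wildtype and apl cotyledons induced to form vascular cells. The genes were chosen by name, through locus codes AT3G09070 (OPS, chromosome 3), AT2G38070 (OPL2, chromosome 2) and AT5G02460 (PEAR2, chromosome 5). Each code is paired with 1 probe set in the platform annotation, so the members are 3 of the 38408 probe sets on the array. That annotation and RefSeq assembly TAIR10.1 hold the name OPS, and list the other genes by locus code alone.

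There were 3 Affymetrix 1-colour arrays of wildtype (Col-0) and 3 of apl, a line with a defect in the phloem regulator APL whose allele and background accession are not named in the labels. Both groups came from seedlings aged 6 days and received the same induction medium, for 72 h. It held the synthetic auxin 2,4-D (1.25 mg/L), 0.25 mg/L of the cytokinin kinetin and 10 µM bikinin. Bikinin inhibits the GSK3-type kinases that hold back brassinosteroid signalling. No probe set is paired with APL itself, so the genotype labels could not be checked from its level. Values are deposited log2 signals. Array medians lay between 6.05 and 6.25 and 25th percentiles between 3.79 and 4.03.

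Phloem sieve elements arise from procambial cells that pass through an early stage of identity and then a late stage of cell clearance, and APL is known for the late stage. OPS (OCTOPUS) is a membrane-associated protein, placed at one end of the cell, that promotes entry into the phloem lineage and binds the GSK3-type kinase BIN2. OPL2 (OCTOPUS-LIKE 2) is a related protein, and PEAR2 is a DOF-type transcription factor made in early sieve element cells of the root that moves to neighbouring cells and promotes their division. The comparison asks whether transcripts of these early genes depend on APL in this culture.

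None of the 3 genes passed the test between genotypes. By limma with Benjamini-Hochberg adjustment over all probe sets, 0 of 3 were called at an adjusted p under 0.05, where 0.604% of all probe sets were called. At an unadjusted p under 0.05 the count was also 0 of 3, against 9.00% of all probe sets, and 1 of 3 in a fit with the replicate number as a block. The measured differences pointed in opposite directions, with OPS and PEAR2 above 0 and OPL2 below 0 in apl, and in all 3 genes the wildtype and apl values overlapped. Groups did not overlap for 15.2% of all probe sets.

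The log2 signal of OPS was 8.03, 7.14 and 7.08 on wildtype arrays 1 to 3, and 8.32, 8.19 and 7.40 on apl arrays 1 to 3. Wildtype array 1 stood apart from the other wildtype arrays and above apl array 3, and the apl group had its low value in array 3. The group means were 7.42 ± 0.53 (SD, n = 3) in wildtype and 7.97 ± 0.50 (SD, n = 3) in apl. OPS thus differed by 0.55 on the log2 scale (SE 0.36, 95% interval -0.29 to 1.39), with a limma adjusted p of 0.733. In signal this is a ratio of apl to wildtype of 1.47, with an interval of 0.819 to 2.63. With the replicate number as a block the SE was 0.21 and the 95% interval 0.01 to 1.10, which leaves out 0, at an unadjusted p of 0.0475 and an adjusted p of 0.296 (limma).

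OPL2 had log2 signals of 6.37, 7.12 and 7.18 in wildtype and 6.10, 6.72 and 5.61 in apl. The lowest wildtype array, number 1, was below the highest apl array, number 2, and that pair of values made the overlap. The means were 6.89 ± 0.45 (SD, n = 3) and 6.14 ± 0.56 (SD, n = 3). OPL2 differed by -0.75 (SE 0.35, 95% interval -1.58 to 0.08), with a limma adjusted p of 0.613 and an unadjusted p of 0.0696. The apl signal was 59.5% of the wildtype signal, and the interval for the ratio of apl to wildtype ran from 0.335 to 1.06. Of the 3 genes OPL2 had the smallest p without the block, and OPS with it. Leaving out apl replicate 3 gave a difference of -0.48, and leaving out apl replicate 2 gave -1.04.

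PEAR2 gave log2 signals of 9.26, 9.08 and 8.50 in wildtype and 9.34, 9.53 and 8.71 in apl. In both genotypes array 3 was the low one, and the apl range of 0.82 was larger than the difference between the means. Those means were 8.94 ± 0.40 (SD, n = 3) in wildtype and 9.20 ± 0.43 (SD, n = 3) in apl. The difference was 0.25 on the log2 scale (SE 0.30, 95% interval -0.46 to 0.96), and the limma adjusted p was 0.876. The ratio of apl to wildtype was 1.19, with an interval of 0.726 to 1.95, so a doubling of PEAR2 lay just outside it. Without wildtype replicate 3 the difference was 0.03.

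**Figure D1:**
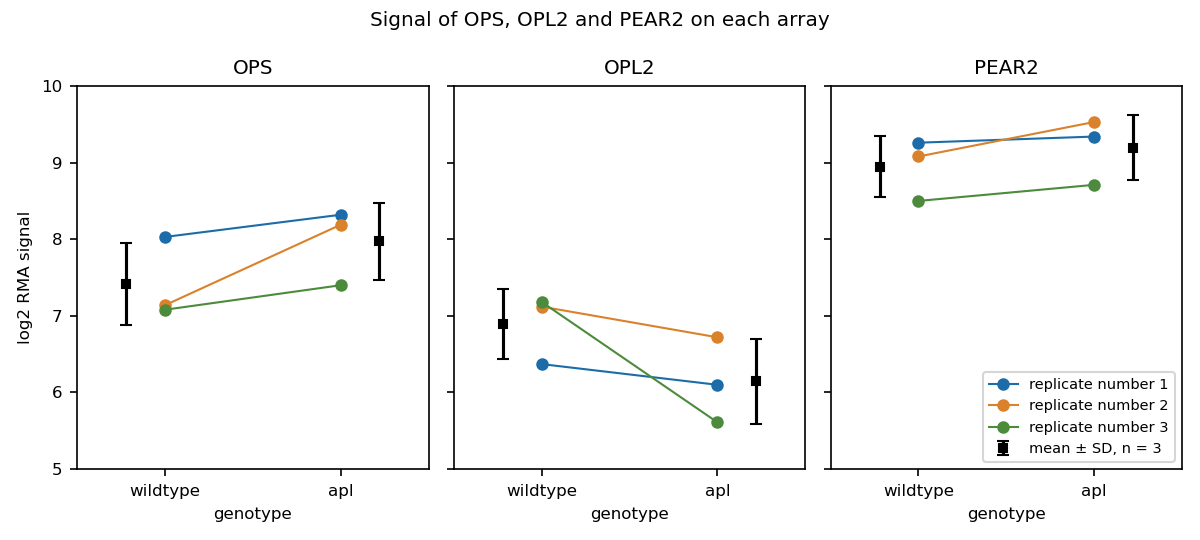
Log2 RMA signal (y axis) of OPS, OPL2 and PEAR2 in wildtype and apl (x axis), 1 point per array, with lines joining arrays that share a replicate number and black squares with bars for the group mean ± SD (n = 3). OPS and PEAR2 lines slope up from wildtype to apl, OPL2 lines slope down, and the 2 groups overlap in each panel.

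Lines between arrays that share a replicate number ran one way within each gene. For OPS, apl minus wildtype was 0.29, 1.05 and 0.32 in pairs 1 to 3. For OPL2 it was -0.27, -0.40 and -1.58, with pair 3 far below the others. For PEAR2 it was 0.08, 0.45 and 0.22. A difference above 0 in all 3 pairs was found for 28.2% of all probe sets and one below 0 in all 3 pairs for 12.9%, so a shared direction across pairs is common on these arrays. With the replicate number as a block the differences were the same and no gene was called (limma adjusted p of 0.296 for OPS, 0.316 for OPL2 and 0.443 for PEAR2), where 1.10% of all probe sets were called. At an unadjusted p under 0.05 the block gave 1 of 3, OPS, against 16.6% of all probe sets, and OPL2 had 0.0584 and PEAR2 0.154 (limma). Same-numbered arrays also share identical values, and whether the pairing lies in the cultures or in the authors' processing cannot be told apart.

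The size of the differences can be read against the whole array. The median difference of all probe sets was 0.10, with 25th and 75th percentiles of -0.10 and 0.29, so apl values lay slightly higher across the table. Of all probe sets, 7.41% had a difference as high as OPS or higher, 29.8% as high as PEAR2 or higher, and 4.07% as low as OPL2 or lower. PEAR2 therefore lay inside the middle range of the table, and OPS and OPL2 lay outside it, on opposite sides. After median centring, which makes the array medians equal, OPS differed by 0.50, OPL2 by -0.81 and PEAR2 by 0.19. That step takes out the difference between array medians, which is less than the median difference of 0.10. The SE of each gene was also larger than the median SE of 0.26 over all probe sets.

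**Figure D2:**
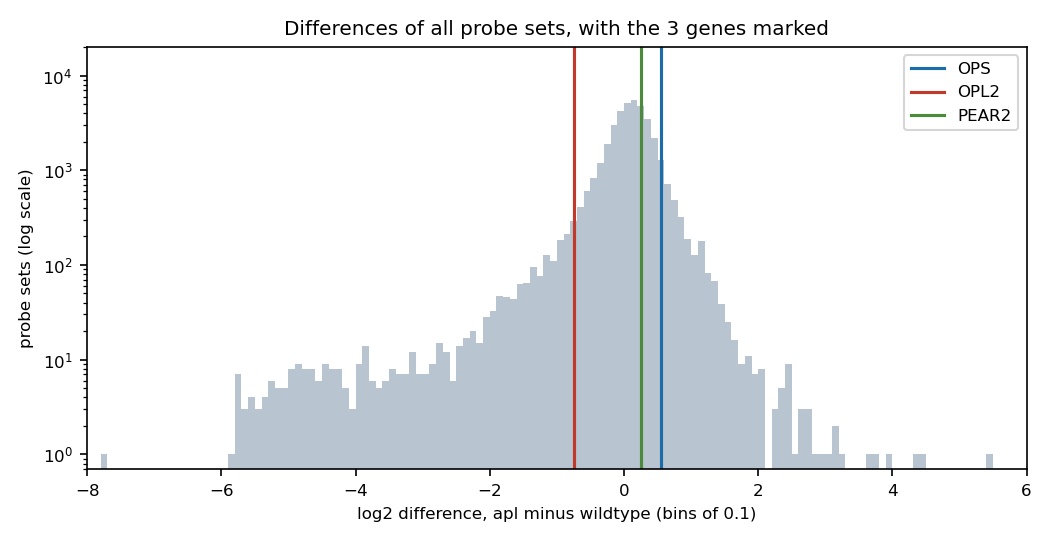
Histogram of the log2 difference, apl minus wildtype (x axis, bins of 0.1), over 38408 probe sets (y axis, number of probe sets on a log scale), with vertical lines at OPS (0.55), OPL2 (-0.75) and PEAR2 (0.25). PEAR2 falls near the peak, OPS and OPL2 on the slopes to its right and left, and the long lower tail of probe sets with far larger losses in apl lies to the left of OPL2.

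Signals of the 3 genes were above the dim end of every array. The lowest single value among them, 5.61 for OPL2 on apl array 3, was at the 44.1th percentile of that array, and the lowest percentiles reached by OPS and PEAR2 were 60.8 and 77.1. These values carry no detection call. Because cotyledons were measured whole, a difference in cell number and one in transcript per cell cannot be told apart for any gene described here.

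How arrays ranked within a genotype differed between the genes. OPS and PEAR2 had the same order in wildtype, lowest in array 3 and highest in array 1. For OPS, wildtype arrays 2 and 3 were close (7.14 and 7.08). Both genes had their lowest apl value in array 3. The medians of whole arrays had the order of OPS, with 6.24, 6.21 and 6.05 on wildtype arrays 1 to 3. On apl arrays 1 to 3 they were 6.25, 6.23 and 6.18. OPL2 had the reverse order in wildtype, lowest in array 1 and highest in array 3, although arrays 2 and 3 were close (7.12 and 7.18). In apl OPL2 ran from array 3 through array 1 to array 2. That full order was shared by 1.87% of all probe sets. Of the 18 other listed genes measured, 3 had it, namely the xylem wall genes IRX10, IRX15 and IRX15-L. The order of PEAR2 was shared by 5.39% of all probe sets and also by 3 of 18 listed genes (CLE45, BRL1 and SPCH), and that of OPS by 9.26% and by 2 of 18 (PHV and MOL1). A shared order is thus not particular to OPL2, and these matches were noticed after the values were seen.

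Those 3 genes act in making xylan, the hemicellulose of secondary walls, and serve here as markers of xylem cells, which the same culture also forms. IRX15 had log2 signals of 7.06, 8.47 and 8.84 in wildtype and 5.72, 7.18 and 5.30 in apl, and its difference was -2.06 (SE 0.62, limma adjusted p = 0.343). IRX10 differed by -1.14 (SE 0.42, limma adjusted p = 0.477) and IRX15-L by -1.48 (SE 0.48, limma adjusted p = 0.401), so none of them passed. All 3 measured of the 10 listed xylem genes lay below 0, where 64.0% of all probe sets lay above 0. Summed over the 3 genes, the log2 signal of the wildtype arrays ran from 12.5 to 13.2. That of the apl arrays ran from 10.6 to 12.3, without overlap. Such a sum is carried by the brighter IRX10 and IRX15-L, and IRX15 alone did overlap. Of all single probe sets, 15.2% had groups without overlap. The part of xylem cell number in the OPL2 difference was not tested.

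Of the other genes of the pathway, few were measured under a name. The lists held 49 genes beside the members, covering OPS relatives, phloem DOF factors, protophloem regulators, sieve element maturation, brassinosteroid signalling with its GSK3-type kinases, and the HD-ZIP III factors. For 8 of the 49 (OPL1, OPL3, OPL4, PEAR1, DOF2.2, PAX, JUL1 and SAPL) the annotation does not hold the name. They were left out, although 7 of their locus codes, all but that of PEAR1, have a probe set. Of the rest 4 were measured, namely CLE45, CLE26, BRL1 and PHV. None of the 4 was called (limma), where 0.604% of all probe sets were, and 0 had an unadjusted p under 0.05, against 9.00%. Their median difference was -0.45 beside 0.10 over all probe sets. With the replicate block, unadjusted p-values (limma) were 0.0151 for CLE45, 0.0195 for CLE26, 0.638 for BRL1 and 0.222 for PHV. Such a p under 0.05 was found for 16.6% of all probe sets. Adjusted p-values with the block (limma) were 0.203 for CLE45 and 0.226 for CLE26. Of 16 DOF genes named in the RefSeq table, 0 are paired with a probe set, so PEAR2 could not be set beside PEAR1 or TMO6.

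The peptide ligands were CLE45 and CLE26, both of which hold back protophloem formation when given to roots. CLE45 had log2 signals of 7.02, 6.74 and 6.15 in wildtype and 5.71, 6.28 and 3.96 in apl. It was lowest in apl array 3, and the groups overlapped because apl array 2 exceeded wildtype array 3. The CLE45 difference was -1.32 (SE 0.58, limma adjusted p = 0.584). CLE26 was 5.38, 5.86 and 4.48 in wildtype and 4.20, 5.40 and 4.00 in apl, a difference of -0.71 (SE 0.48, limma adjusted p = 0.742). Among receptors, BRL1, a brassinosteroid receptor of vascular cells, differed by -0.09 (SE 0.22). PHV, an HD-ZIP III factor of the class that opposes PEAR action in the root, had values of 9.90, 9.68 and 9.20 in wildtype and 9.81, 9.38 and 9.02 in apl. Its difference was -0.19 (SE 0.28, limma adjusted p = 0.906), and like PEAR2 it was lowest in array 3 of both genotypes, as were the array medians.

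**Figure D3:**
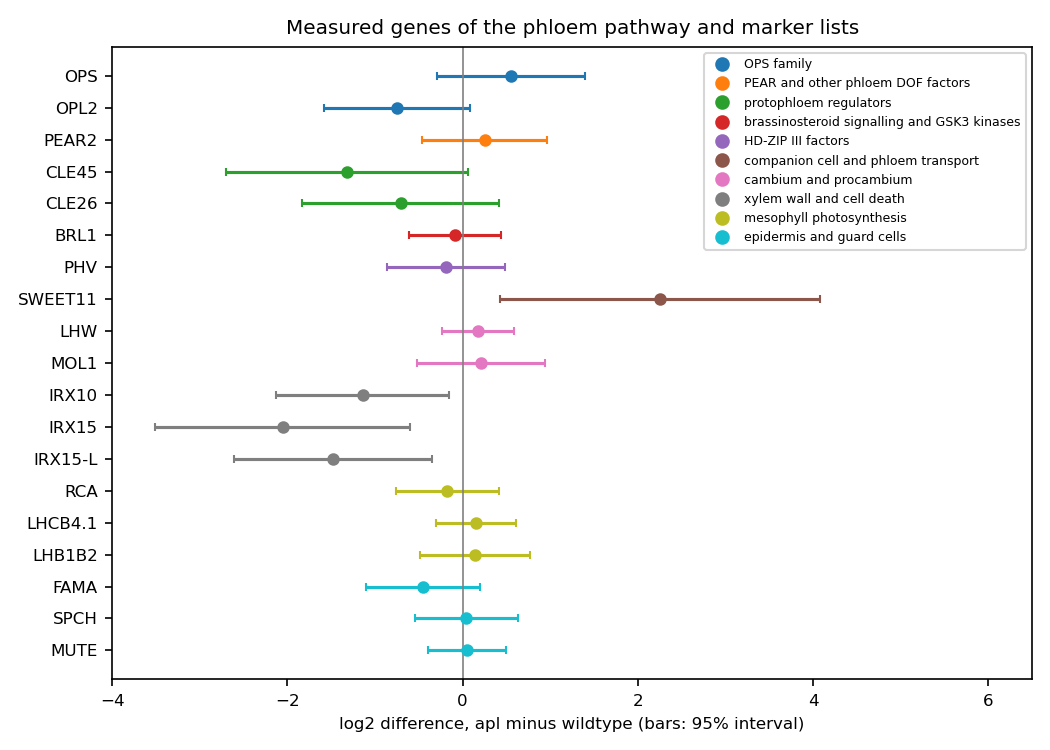
Log2 difference, apl minus wildtype (x axis), with 95% intervals from limma, for the 19 measured genes of the pathway and marker lists (y axis), coloured by list. In this fit, without the replicate block, the intervals of OPS, OPL2 and PEAR2 cross 0. Those of SWEET11 (2.25) and the 3 xylem wall genes do not, although none of these was called after adjustment over all probe sets. With the block, intervals (not drawn) that also leave out 0 are those of OPS (0.01 to 1.10), CLE45 (-2.25 to -0.40), CLE26 (-1.24 to -0.18) and FAMA (-0.83 to -0.06), again without a call.

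Markers of other cells present in cotyledons gave no call either, with 0 of 12 measured marker genes of 29 listed passing the adjusted threshold and 4 of 12 at an unadjusted p under 0.05 (limma), namely SWEET11 and the 3 xylem wall genes, where 9.00% of all probe sets had such a p. As markers of the labelled tissue, the photosynthesis genes RCA, LHCB4.1 and LHB1B2 had log2 values of 8.68 to 10.86 on the 6 arrays. Summed over the 3, the log2 signal ran from 11.3 to 11.9 on wildtype arrays and from 11.5 to 11.7 on apl arrays. The cambium genes LHW, a partner of TMO5, and MOL1, a receptor-like kinase, differed by 0.18 (SE 0.18) and 0.21 (SE 0.31). SWEET11, a sucrose exporter of phloem parenchyma, differed by 2.25 (SE 0.77, limma adjusted p = 0.435). Among stomatal factors, FAMA had a difference of -0.45 (SE 0.28), and those of SPCH and MUTE were within 0.05 of 0. With the replicate block FAMA had an unadjusted p of 0.0304 and an adjusted p of 0.254 (limma).

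Genes with the most similar course were sought for each member by Pearson's r over the 6 arrays. The search covered 7828 other genes that were brighter than the array-wide median and had a probe set paired with that gene alone. The 6 arrays share 2 genotypes and 3 replicate numbers, so each r rests on few values and describes likeness in these arrays alone. For OPS the 4 highest were AT5G37240, AT5G48340, AT4G20480 and AT5G11850, with r of 0.993 to 0.997. Their differences, 0.20 to 0.32, were smaller than that of OPS, and 110 genes had r over 0.95 with it. OPL2 had the fewest such genes, 48, led by AT1G28100, AT3G14430, AT3G27200 and AT4G27435 with r of 0.986 to 0.993.

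AT4G27435 had log2 signals of 8.48, 9.79 and 9.91 in wildtype and 7.38, 8.79 and 6.89 in apl, and the difference was -1.70 (SE 0.58, limma adjusted p = 0.420). It followed OPL2 array by array with larger steps between arrays. AT3G27200 differed by -1.51 (SE 0.50, limma adjusted p = 0.417), AT1G28100 by -0.69 and AT3G14430 by -0.42. For PEAR2 the 4 were UBP21, named as a ubiquitin-specific protease, AT1G47900, AT2G36480 and AT1G07270, with r of 0.991 to 0.995 and differences of 0.16 to 0.30, and 82 genes had r over 0.95. Of the 12 similar genes 0 were called, and 2, AT3G27200 and AT4G27435, had an unadjusted p under 0.05 (limma), against 9.00% of all probe sets. They were picked for their likeness to OPL2, so their direction follows from that choice.

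**Figure D4:**
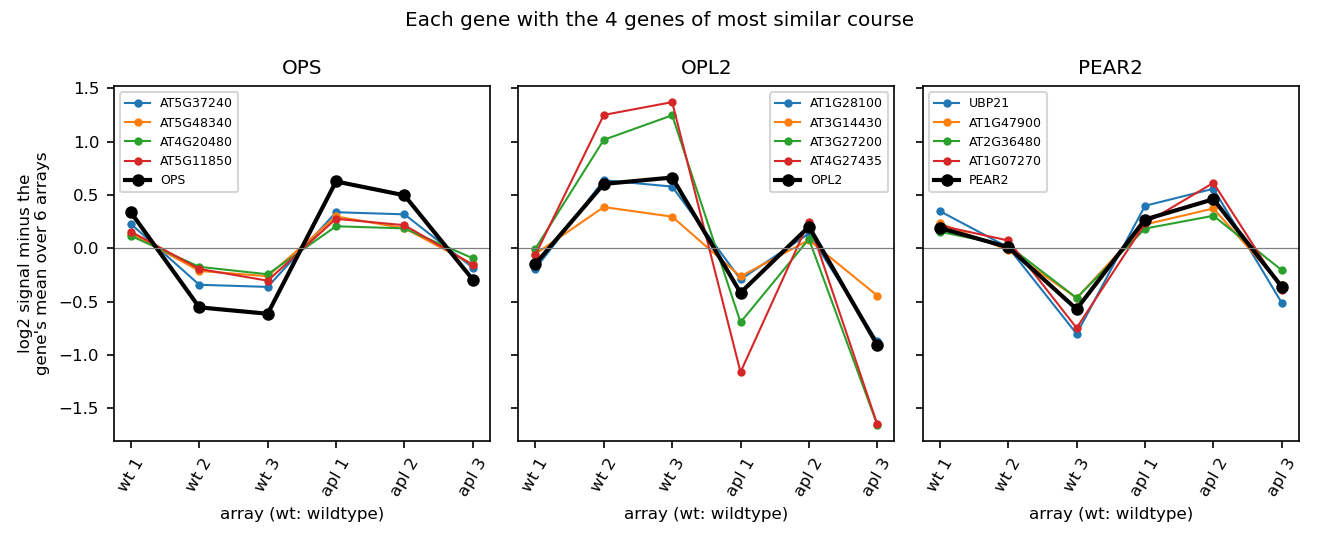
Log2 signal minus the gene's own mean over the 6 arrays (y axis) on each array (x axis), for OPS, OPL2 and PEAR2 in black and the 4 genes with the highest Pearson's r to each in colour. PEAR2 is lowest in array 3 of both genotypes, and OPS is low in wildtype arrays 2 and 3 and in apl array 3. OPL2 peaks in wildtype arrays 2 and 3 and is lowest in apl array 3.

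The neighbours of the members on their chromosomes did not share one direction. The nearest 2 measured genes on either side of each gene, 12 in all and mostly listed by locus code alone, had differences between -0.58 and 0.52. Their median was 0.13, and 0 were called (limma, also 0 at an unadjusted p under 0.05). With the replicate block, unadjusted p-values (limma) were under 0.05 for AT3G09080 (0.0220), AT3G09085 (0.0440) and Hsp70-2 (0.0148), against 16.6% of all probe sets. The smallest adjusted p with the block was 0.202. AT3G09080, next to OPS, had log2 signals of 5.31, 4.92 and 4.64 in wildtype and 5.58, 5.64 and 5.21 in apl. Its difference of 0.52 (SE 0.24, limma adjusted p = 0.602) was close in size to that of OPS, while AT3G09060 on the other side differed by 0.26 (SE 0.21). Near PEAR2, AT5G02450 differed by 0.20 (SE 0.24), AT5G02480 by -0.07 (SE 0.22) and Hsp70-2 by -0.54 (SE 0.35). The measured genes nearest to OPL2 on one side were AT2G38090, at -0.13 (SE 0.30), and AT2G38100, at 0.37 (SE 0.32), 3 and 4 genes away. On the other side AT2G38010 and AT2G37990, 8 and 10 genes away, differed by 0.44 (SE 0.23) and 0.35 (SE 0.18). None had the sign and size of OPL2.

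The direction of each gene's difference was the same under all 13 alternatives tried, and none brought a call. The replicate block, the percentile filters and the robust prior with a variance trend cannot change the difference itself. For these only the SE and p-values could move. For OPS the difference was between 0.38 and 0.86 when 1 array was left out, the highest without wildtype replicate 1. For PEAR2 it was between 0.03 and 0.49 and for OPL2 between -1.04 and -0.48.

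**Figure D5:**
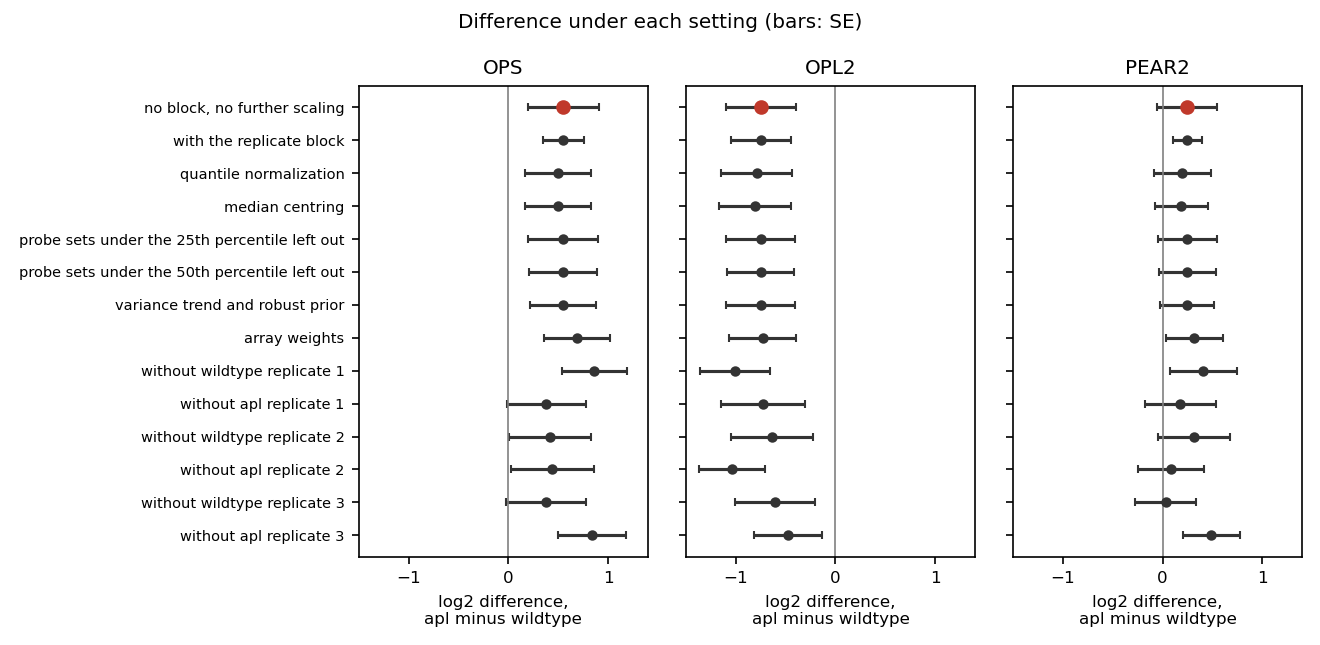
Log2 difference, apl minus wildtype (x axis), with SE bars, for OPS, OPL2 and PEAR2 under each setting (y axis), with the reported fit in red. OPS and PEAR2 stay above 0 and OPL2 below 0 in every setting, and the widest moves come from leaving out single arrays, as for PEAR2 at 0.03 without wildtype replicate 3.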

How the data were processed

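The deposited log2 signals of 38408 probe sets came from RMA (submitters' processing notes, no version given) and were not rescaled here. Of these, 16722 are paired with 1 gene and 16574 of those matched RefSeq (TAIR10.1). Genotypes were compared with limma 3.58.1 (R 4.3.3), as apl minus wildtype, 2-sided, without a replicate block, adjusted over all probe sets (called: adjusted p under 0.05). The fit was also tested on simulated data. These were drawn without any shared deviation of same-numbered arrays, so that test does not cover such pairing. Unless another setting is named, SEs and 95% intervals come from the fit without the block, which leaves out any pairing by replicate number. Same-numbered arrays deviated together (r = 0.40 to 0.45 in all 3 pairs) and held 740 to 940 identical values, against at most 2 otherwise; by the correlations, numbers were taken to pair samples, from the data and not the labels. The sources used here do not give how arrays were grouped in RMA, so the pairing may lie in that step. No label says that replicates came from separate cultures. The p-values therefore reflect spread that may be technical, and the number of arrays limits the precision.

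Members, lists and tests were chosen with earlier results of these data known. Named genes are the members, up to 4 list genes with the smallest p per list, the 4 most similar genes and the 2 nearest measured neighbours on either side. Of 81 listed genes, 26 have a probe set at their locus code. The annotation lacks the name of 10, of which OPL2 and PEAR2 were kept by rule and 8 were left out, 7 of them with a probe set, so 19 were used. Alternatives were the replicate block, quantile normalization, median centring, filters at the 25th and 50th percentiles, array weights, a robust prior with a variance trend, thresholds of 0.01 and 0.10, and leaving out each array. Figures were drawn with matplotlib 3.10.9.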

Additional observations from a re-analysis of the deposited data

How the results depend on the processing

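OPS, OPL2 and PEAR2 kept their direction and stayed uncalled under all 13 alternatives. The replicate block, the percentile filters and the robust prior with a variance trend leave the difference itself unchanged by design. Leaving out 1 array gave differences of 0.38 to 0.86 for OPS, -1.04 to -0.48 for OPL2 and 0.03 to 0.49 for PEAR2, and the other settings 0.50 to 0.69, -0.81 to -0.73 and 0.19 to 0.32. The smallest limma adjusted p over all alternatives was 0.296 for OPS, 0.316 for OPL2 and 0.443 for PEAR2, each with the replicate block. Unadjusted p-values (limma) fell below 0.05 for OPS with the replicate block (0.0475), without wildtype replicate 1 (0.0397) and without apl replicate 3 (0.0460), and for OPL2 without wildtype replicate 1 (0.0289) and without apl replicate 2 (0.0201). Averaging several probe sets of a gene was not run, since each gene has 1. Over the whole table (limma) 30 probe sets were called higher in apl and 202 were called lower. The replicate block gave 81 higher and 340 lower, the robust prior with a variance trend 98 higher and 314 lower. A threshold of 0.01 left 2 higher and 35 lower, and one of 0.10 gave 97 higher and 321 lower. The 25th percentile filter gave 61 higher and 239 lower calls, and the 50th percentile filter 92 higher and 201 lower. When single arrays were dropped, higher calls numbered 1 to 22 and lower calls 20 to 308. The cause of these moves was not tested. Under the filters both the number of tests and the variance estimates change. RMA signals have no detection call, which limits statements on dim genes such as MUTE.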
